A study of Mus musculus with 4 samples.

Results

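Lymphatic endothelial cells of transplanted mouse hearts were drawn from single-cell RNA libraries of whole grafts by a rule on raw counts of unique molecular identifiers (UMIs, 1 per captured RNA molecule). Barcodes with at least 500 UMIs, at least 300 genes and at most 20% mitochondrial UMIs were kept. A kept barcode was called lymphatic when it held at least 2 UMIs of Prox1 and Mmrn1 together, at least 2 of the pan-endothelial genes Pecam1, Cdh5, Egfl7 and Esam together, at most 1 of the leukocyte gene Ptprc and at most 5 of the collagen genes Col1a1 and Col1a2. The cells were thus selected on their own counts of these genes, and what follows on those genes is a description. The rule found 104 cells among 30895 kept barcodes. They were set against 3260 blood endothelial cells of the same libraries, which met the same limits and held no UMI of Prox1 or Mmrn1.

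The study collected grafts on day 5 after transplantation, digested them with enzymes and made droplet libraries with a 3' chemistry. There were 4 libraries: 3 of allogeneic grafts (replicates 1, 2 and 3), in which donor and recipient differ genetically, and 1 of an isogeneic graft (numbered replicate 2), which the series' design text calls syngeneic and in which they do not. The labels name neither the mouse strains nor the animals, their age, any cell sort or any further treatment, and nothing says that the replicates came from separate animals. The p-values therefore refer to the spread between libraries, which may be technical. With so few libraries the tests of genes take much of that spread from all genes together, not from each gene's own libraries. Lymphatic cells numbered 1, 17 and 27 in allogeneic replicates 1, 2 and 3, against 59 in the isogeneic library. The lone cell of allogeneic replicate 1 was left out of every summed comparison, so that allogeneic lymphatic cells rest on 2 libraries.

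Lymphatic endothelial cells line the vessels that drain fluid and leukocytes from tissue to lymph nodes. Prox1 is the transcription factor that sets their identity, Flt4 (VEGFR3) is the receptor through which Vegfc drives their growth, Lyve1 binds hyaluronan on initial lymphatics, and Ccl21a guides dendritic cells and T cells that carry Ccr7 into the vessel. In the heart they are dense beneath the epicardium, and in a graft they are a route by which donor antigen and donor leukocytes can leave. Interferon-gamma, made by T cells and natural killer cells, acts through Jak kinases and induces Irf1, guanylate-binding proteins, chemokines and both classes of MHC molecule in endothelium.

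The libraries held between 51054446 and 100038951 UMIs in all, and the rule kept 4983, 8215 and 6311 barcodes in allogeneic replicates 1, 2 and 3, against 11386 in the isogeneic library. The lymphatic cells had a median of 6986.5 UMIs, against 3624 in blood endothelial cells. Their summed UMIs were 117845 and 289754 in allogeneic replicates 2 and 3, against 465734 in the isogeneic library. Among the kept barcodes 105 sequences occurred in more than 1 library, and 1 of them was that of a lymphatic cell. A doublet score marked 1 lymphatic cell of allogeneic replicate 3 and 6 of the isogeneic library.

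The label was checked against 5 lymphatic genes that the rule did not use, Lyve1, Flt4, Pdpn, Ccl21a and Reln. At least 2 of the 5 were detected in 96 of the 104 cells, 4 or 5 in 76 and all 5 in 51. Among the blood endothelial cells 47 of 3260 held at least 2. Ccl21a was detected in 84.6% of lymphatic cells, against 2.02% of blood endothelial cells, with a median of 85 and a maximum of 1247 UMIs in a lymphatic cell. Flt4 was detected in 84.6%, against 12.9% of blood endothelial cells, and Reln, a secreted glycoprotein, in 83.7%, against 0.368%. Podoplanin (Pdpn), a mucin-type glycoprotein of the lymphatic surface, was detected in 72.1%, against 4.26%, and Lyve1 in 70.2%, against 1.63%. The cells as a group thus carried the lymphatic label. The blood endothelial cells were shallower, and the part of free RNA, shared expression or lymphatic cells without a Prox1 or Mmrn1 UMI in their shares was not tested.

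Within the group 8 cells had at most 1 of the 5 genes, 5 of them in allogeneic replicate 3 and 3 in the isogeneic library. The 5 cells of allogeneic replicate 3 entered on Prox1 alone, with no UMI of Mmrn1, Lyve1, Pdpn, Ccl21a or of the tight junction gene Cldn5. Prox1 was detected in 85 and Mmrn1 in 96 of the 104 cells, and both in 77. At the lower edge of the rule 15 cells had exactly 2 UMIs of Prox1 and Mmrn1, and 11 of them held at least 2 of the 5 further genes. Just outside it, 26 endothelial barcodes had 1 such UMI, and 7 of them held at least 2.

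Barcodes that passed the Prox1 and Mmrn1 limit and failed only another limit also looked lymphatic. With over 1 Ptprc UMI and all other limits met there were 17 in allogeneic replicate 2, 3 in allogeneic replicate 3 and 5 in the isogeneic library, and 24 of these 25 held at least 2 of the 5 genes. With over 5 collagen UMIs there were 3 in allogeneic replicate 3 and 15 in the isogeneic library, and all 18 held at least 2. The Ptprc limit therefore removed as many barcodes from allogeneic replicate 2 as the 17 it kept there, and the collagen limit removed most from the isogeneic library.

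**Figure D1:**
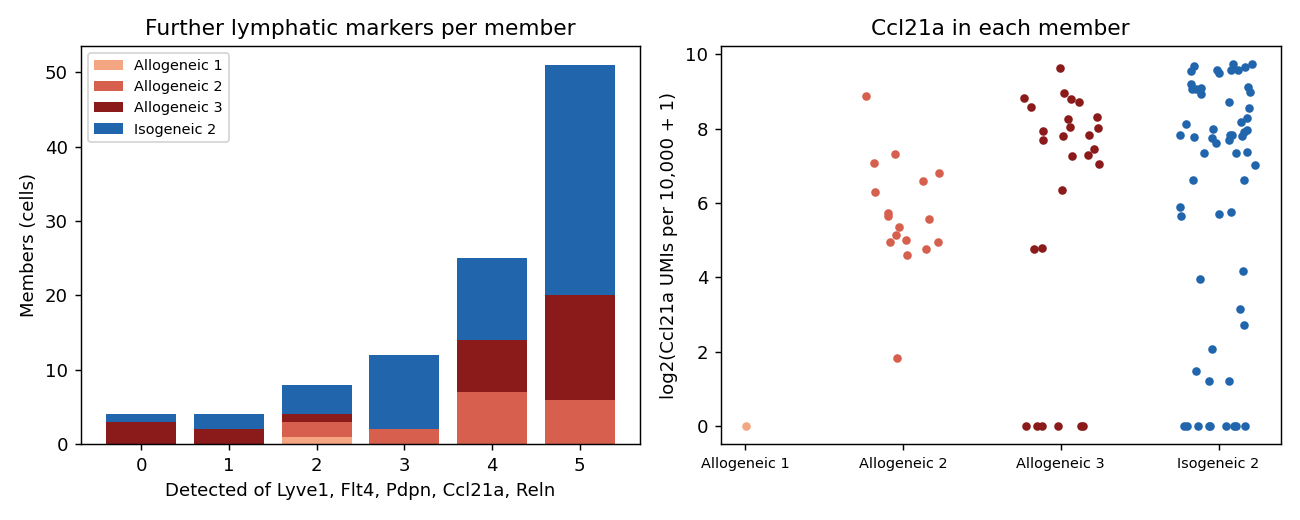
Left, number of lymphatic cells in each library by how many of Lyve1, Flt4, Pdpn, Ccl21a and Reln were detected; right, Ccl21a in each cell as log2 of UMIs per 10000 plus 1, with 1 point per cell. Of the 104 cells 51 held all 5 genes, and the cells without Ccl21a lie on the zero line.

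Lymphatic cells made up 0.269%, 1.83% and 3.72% of lymphatic and blood endothelial cells in allogeneic replicates 1, 2 and 3, against 4.41% in the isogeneic library. The 95% Clopper-Pearson intervals, which cover counting error only, ran from 0.0068 to 1.49%, from 1.07 to 2.91% and from 2.47 to 5.37% in allogeneic replicates 1, 2 and 3, against 3.37 to 5.65% in the isogeneic library. All 3 allogeneic shares lay below the isogeneic one, and the interval of allogeneic replicate 3 overlapped it. The difference of means was -2.47 percentage points (allogeneic 1.94 ± 1.73%, SD, n = 3), with p = 0.5 in a two-sided exact permutation test whose smallest possible p here is 0.25. Without allogeneic replicate 3 the difference was -3.36 and without allogeneic replicate 1 it was -1.63 points. After thinning each barcode to 2000 UMIs, which left out 1050, 2016 and 1384 allogeneic barcodes and 1532 isogeneic ones, the shares were 0.284, 1.34 and 3.03%, against 3.20%. As the Ptprc and collagen limits removed different numbers of lymphatic-looking barcodes from each library, their part in these shares was not tested.

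The genes that distinguished lymphatic from blood endothelial cells are given next as a description, because the rule split the same cells. UMIs were summed per library and kind and compared in the 3 libraries with at least 5 lymphatic cells, with the library as a block, in edgeR's quasi-likelihood test with Benjamini-Hochberg adjustment at 0.05. Of 10244 genes tested 997 (9.73%) differed, 520 (5.08%) higher and 477 (4.66%) lower in lymphatic cells. Of the 30 lymphatic identity genes tested 26 were higher and none lower, with a median log2 difference of 3.88, against -0.06 over all genes tested. Values below are counts per 1000000 summed UMIs (CPM).

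Ccl21a stood at 9589 and 18910 CPM in lymphatic cells of allogeneic replicates 2 and 3 and 21930 CPM in those of the isogeneic library, against 6.0, 9.70 and 32.2 CPM in blood endothelial cells of the same libraries, a log2 difference of 10.20 ± 0.45 (approximate SE). Lyve1 had 365, 1053 and 1174 CPM in lymphatic cells, against 1.64, 2.33 and 11.6 CPM in blood endothelial cells (7.44 ± 0.41). The lymphatic values of both genes lay above every blood endothelial value. Tbx1, a T-box factor needed for lymphatic growth, had 161, 155 and 185 CPM, against 0, 0 and 0.306 CPM (9.79 ± 0.51). Flt4 had 798, 438 and 417 CPM, against 30.4, 28.7 and 29.8 CPM (4.08 ± 0.28). The gap for Flt4 was the same in direction and smaller than for Ccl21a, and blood endothelial cells held a steady low level of it in all 3 libraries.

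Other identity genes followed in all 3 libraries. The transcription factor Maf was higher by 4.01 ± 0.27 on the log2 scale and the scavenger receptor Stab1 by 3.34 ± 0.30. The neuropeptide gene Nts had 1816, 2405 and 1086 CPM in lymphatic cells, against 125, 157 and 132 CPM in blood endothelial cells (3.54 ± 0.29). The semaphorins Sema3a and Sema3d, guidance cues, were higher by 5.10 ± 0.40 and 5.36 ± 0.52. Lcn2, an iron-binding acute phase protein that was on the inflammatory list and not on the identity list, was higher by 4.91 ± 0.29, with 806, 1626 and 387 CPM in lymphatic cells, against 22.6, 53.5 and 13.4 CPM.

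Genes of vessel growth and structure differed in part. Of 26 growth signalling genes tested 8 were higher and 2 lower. Those higher included Nrp2, a co-receptor for Vegfc (1.22 ± 0.26), Adm, the peptide adrenomedullin (1.62 ± 0.35), and Foxc2, a factor of lymphatic valves (2.78 ± 0.64). Those lower were Nrp1, a co-receptor for Vegfa, and Vegfc itself, which had no UMI in lymphatic cells and was at least 9.95-fold lower there than in blood endothelial cells, against a floor of 3 counts over the summed libraries. Of 14 valve and collecting vessel genes 6 were higher, among them Celsr1, a planar polarity cadherin of valves, and 1 was lower. Cldn5, a tight junction protein of endothelium, had 1392, 1363 and 1619 CPM, against 175, 288 and 262 CPM (2.55 ± 0.27), whereas Jam2, a junctional adhesion molecule, was lower by 3.11 on the log2 scale.

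**Figure D2:**
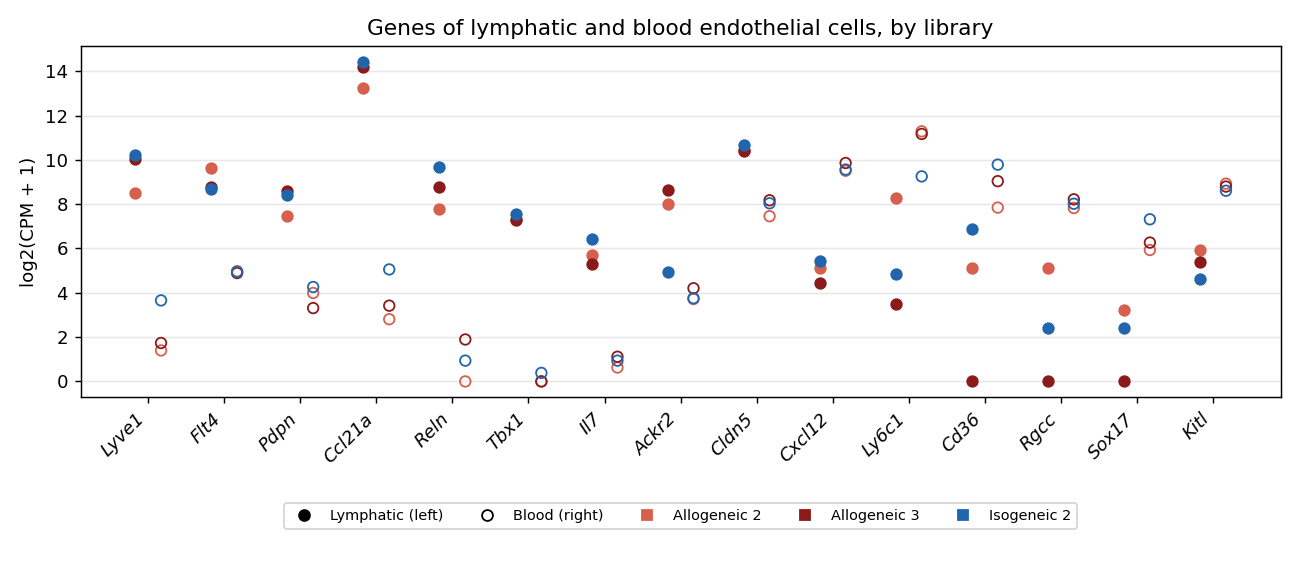
CPM on a log2 scale in summed lymphatic cells (filled, left) and summed blood endothelial cells (open, right) of allogeneic replicate 2, allogeneic replicate 3 and the isogeneic library, for genes higher and lower in lymphatic cells; each point is 1 library. Ccl21a lies at 9589 to 21930 CPM in lymphatic cells and at 6.0 to 32.2 CPM in blood endothelial cells.

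Genes that steer leukocytes differed in both directions, with 5 of 20 chemokines and decoy receptors higher and 5 lower. The higher ones were Ccl21a, the chemokine-clearing receptors Ackr2 and Ackr3, and the cytokines Il7 and Il33. Il7, which sustains T cells, had 50.9, 38.0 and 85.9 CPM in lymphatic cells, against 0.546, 1.16 and 0.916 CPM in blood endothelial cells (6.04 ± 0.55). Cxcl12, the ligand of Cxcr4, was lower, with 33.9, 20.7 and 42.9 CPM in lymphatic cells, against 728, 927 and 755 CPM (-4.67 ± 0.36). The other lower ones were Cx3cl1 and the interferon-gamma-induced chemokines Cxcl9 (-2.45 ± 0.45), Cxcl10 and Cxcl11. Among sphingosine 1-phosphate genes, which govern lymphocyte exit, the transporter gene Spns2 was higher by 1.12 and Plpp3, whose product degrades the lipid, was lower by a log2 difference of -1.10. Among 17 adhesion genes 3 were higher, the scavenger or hyaluronan receptors Stab1, Mrc1 and Lyve1 that are also identity genes, and 4 were lower, namely Vcam1 (-2.12 ± 0.36), Sele, Jam2 and Cd34. Among 12 checkpoint and co-stimulatory ligands Nectin2 (3.03 ± 0.28) and Vsir were higher, and Cd274, which encodes PD-L1 (-1.51 ± 0.29), Tnfsf10 and Il15 were lower.

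Blood capillary genes were the clearest lower group, with 14 of 18 lower, none higher and a median of -3.41. Rgcc, a cell cycle regulator abundant in capillaries, was lower by a log2 difference of -5.21, Ly6c1 by -4.67 and Kitl, the ligand of Kit, by -3.60. The fatty acid transporters Cd36 and Fabp4 were lower by -3.77 and -2.64. Arterial, venous and endocardial genes split, with 4 of 16 higher, 4 lower and a median of 0.17. The higher ones were Nr2f2, a factor of venous and lymphatic identity (3.29 ± 0.36), Lrg1 (3.44 ± 0.45), Efnb2 and Plvap, and the lower ones included Sox17, an arterial factor (-5.10 ± 0.56). Of 9 mural cell genes tested 7 were lower. The mural list, which marks pericytes and smooth muscle cells, summed to 42.4, 62.1 and 429 CPM in lymphatic cells. It summed to 615, 1002 and 3045 CPM in blood endothelial cells. The fibroblast list went the other way, with 2 of 8 genes tested higher and 0 lower. It summed to 161, 1294 and 1166 CPM in lymphatic cells, against 92.6, 413 and 681 CPM. The part of fibroblast RNA in the higher genes was not tested. Interferon-gamma genes were lower in 8 of 30, with a median of -0.59, and type I interferon genes in 10 of 28, with a median of -0.70, and none of either list was higher. No MHC class I gene of 20 and no class II gene of 9 passed the test.

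The allogeneic lymphatic cells were then compared with the isogeneic ones. This is the comparison of the study's design carried into the lymphatic cells, with 2 libraries against 1, and the test assumes that the lone isogeneic library varies like the others. An exact permutation over these 3 libraries cannot give a p below 0.333. A gene can pass the edgeR test although its 2 allogeneic libraries stand far apart. Hbb-bs passed with 2249 and 24.2 CPM in allogeneic replicates 2 and 3, against 12.9 CPM in the isogeneic library. A small p is thus no measure of how close the libraries lay. In edgeR's quasi-likelihood test with Benjamini-Hochberg adjustment, 208 of 5995 genes (3.47%) changed in allogeneic lymphatic cells, of which 160 (2.67%) rose and 48 (0.801%) fell. Genes of the interferon-gamma response, of both MHC classes and of the type I interferon response rose. The lymphatic identity genes, like most genes tested, mostly did not pass the test in either direction. DESeq2 on the same sums called 53 genes. It gave no adjusted p to 2093 of the 5995 genes, and these count as not called here and below. The edgeR test without doublet-marked barcodes called 58.

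Of 30 interferon-gamma response genes, all of them tested, 24 rose and none fell, with a median log2 change of 4.15, against 0.01 over all genes tested, or 3.73 with genes at 0 in the isogeneic library set at their lower bounds. DESeq2 called 16 of them and the test without doublet-marked barcodes 14. The guanylate-binding protein gene Gbp2 had 2215 and 2305 CPM in allogeneic lymphatic cells, against 19.3 CPM in isogeneic ones, a log2 change of 6.84 ± 0.73 (adjusted p = 3.08e-17). Both allogeneic libraries lay far above the isogeneic one, and the lone lymphatic cell of allogeneic replicate 1 stood at 2307 CPM. The immunity-related GTPases Igtp and Iigp1 rose by 4.93 ± 0.74 and 5.12 ± 0.69. Irf1, a transcription factor of the interferon response, had 441 and 714 CPM, against 75.2 CPM (2.96 ± 0.64, adjusted p = 0.000252). Socs1, a feedback inhibitor of Jak kinases, rose by 5.49. The call of Irf1 was lost without doublet-marked barcodes.

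The 6 genes of the list that did not pass the test were Ido1, Irf9, Ifngr1, Ifngr2, Jak1 and Jak2, that is the receptor chains, the kinases and a subunit of the type I response complex, together with Ido1, which degrades tryptophan. Ido1 had 110 and 6.90 CPM in allogeneic lymphatic cells, against 0 CPM in isogeneic ones, and its 2 allogeneic libraries stood far apart.

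The sequences upstream of 4 interferon-induced genes are shown because they carry DNA elements known from interferon-induced genes; that of Ackr2 is shown beside them because Ackr2 is described below. Each is the 250 bases before the annotated start in RefSeq GRCm38.p6, 5′ to 3′ on the gene's strand, with matches to GAS (TTCNNNGAA) or ISRE (GAAANNGAAA, or TTTCNNTTTC on the other strand) in capitals.
Irf1 (chr11:53769764-53770013, plus strand): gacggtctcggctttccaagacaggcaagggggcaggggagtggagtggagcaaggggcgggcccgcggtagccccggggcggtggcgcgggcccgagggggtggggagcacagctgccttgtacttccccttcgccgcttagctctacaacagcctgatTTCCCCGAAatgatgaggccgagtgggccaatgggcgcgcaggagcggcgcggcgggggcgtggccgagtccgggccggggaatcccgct
Gbp2 (chr3:142620413-142620662, plus strand): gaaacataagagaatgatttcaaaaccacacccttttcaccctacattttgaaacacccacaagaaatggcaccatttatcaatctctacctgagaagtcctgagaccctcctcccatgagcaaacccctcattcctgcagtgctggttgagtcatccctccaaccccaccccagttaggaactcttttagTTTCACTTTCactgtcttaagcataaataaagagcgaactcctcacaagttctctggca
Igtp (chr11:58199306-58199555, plus strand): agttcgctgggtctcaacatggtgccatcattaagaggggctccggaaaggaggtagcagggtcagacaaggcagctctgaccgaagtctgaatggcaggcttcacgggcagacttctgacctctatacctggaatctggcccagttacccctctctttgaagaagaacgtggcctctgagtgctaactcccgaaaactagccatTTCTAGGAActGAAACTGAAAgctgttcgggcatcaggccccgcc
Isg15 (chr4:156200819-156201068, minus strand): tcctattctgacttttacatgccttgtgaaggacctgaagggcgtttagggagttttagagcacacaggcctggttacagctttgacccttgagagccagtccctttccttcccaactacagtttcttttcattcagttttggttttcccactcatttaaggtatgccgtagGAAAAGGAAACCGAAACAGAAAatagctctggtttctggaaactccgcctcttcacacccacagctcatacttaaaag
Ackr2 (chr9:121898105-121898354, plus strand): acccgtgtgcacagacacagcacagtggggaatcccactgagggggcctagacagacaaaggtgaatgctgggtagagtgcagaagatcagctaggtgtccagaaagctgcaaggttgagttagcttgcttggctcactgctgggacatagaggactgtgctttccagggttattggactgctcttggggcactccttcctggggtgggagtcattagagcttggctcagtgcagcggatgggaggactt
The window of Irf1 held a GAS match, that of Gbp2 an ISRE match, that of Igtp 1 of each, that of Isg15 a run of overlapping ISRE matches, and that of Ackr2 neither.

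Of the 160 genes that rose, 118 had a window in the RefSeq table, and 28 of these windows (23.7%) held an ISRE match on either strand, against 154 of 4787 windows (3.22%) among the genes tested and 821 of 27025 (3.04%) in the whole table. A GAS match was held by 16 (13.6%), against 262 (5.47%) of the genes tested and 1940 (7.18%) of the whole table. Either element was held by 37 (31.4%), against 393 (8.21%) of the genes tested. These are matches of letters, not measured binding.

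**Figure D3:**
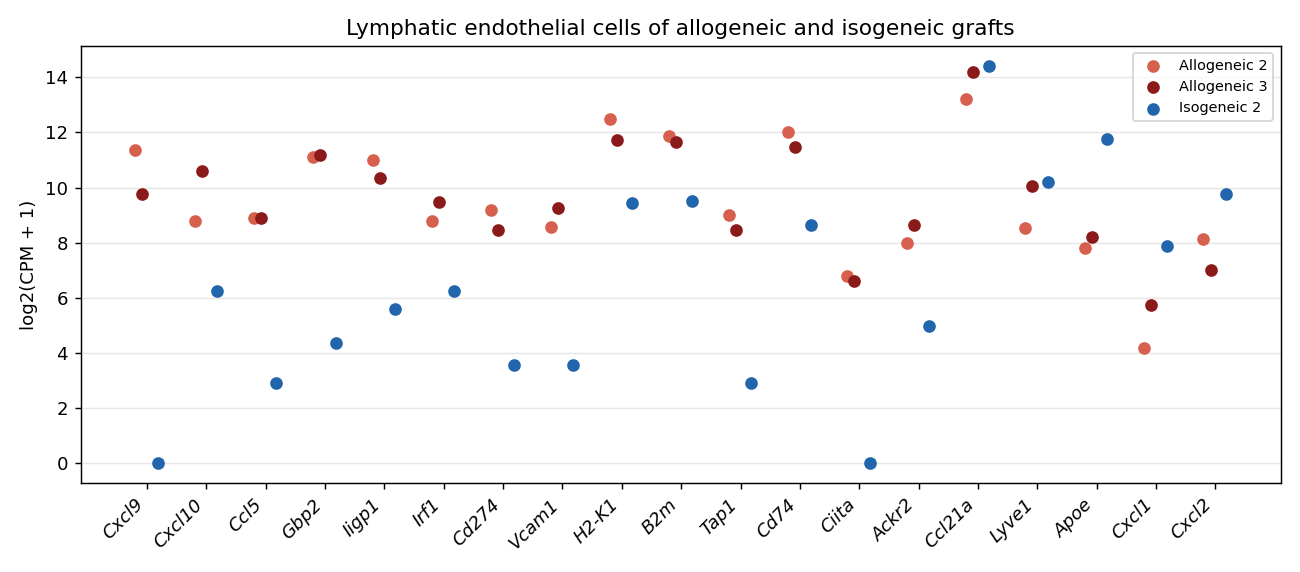
log2(CPM + 1) of named genes in summed lymphatic cells of allogeneic replicate 2, allogeneic replicate 3 and the isogeneic library; each point is 1 library. Gbp2 lies at 2215 and 2305 CPM in allogeneic cells and at 19.3 CPM in isogeneic cells, while Apoe lies lower in both allogeneic libraries.

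RNA of genes for antigen presentation through MHC class I rose almost throughout, with 18 of 19 genes tested higher, none lower and a median log2 change of 2.75. DESeq2 called 9, the test without doublet-marked barcodes 6 and that with no filter on low counts 15 of 20. The heavy chain gene H2-K1 had 5753 and 3355 CPM in allogeneic lymphatic cells, against 694 CPM in isogeneic ones (2.71 ± 0.49, adjusted p = 3.22e-06). B2m, the light chain, had 3742 and 3234 CPM, against 737 CPM (2.25 ± 0.50, adjusted p = 0.000355). Each of these libraries lay above the isogeneic one by several fold. Tap1, a subunit of the peptide transporter, had 518 and 349 CPM, against 6.44 CPM, or 3 UMIs, a ratio of 61.7 with a counting interval from 20.7 to 302. The immunoproteasome subunit Psmb8 rose by 3.01, and Psme2, a proteasome activator, did not pass the test (adjusted p = 0.063). Heavy chain genes such as H2-Q6 and H2-Q7 share sequence, so that their separate counts are uncertain. The labels do not say whether grafts of both groups came from the same donor strain. The part of donor genotype in the MHC class I and class II counts was not tested.

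MHC class II genes rose in 7 of 8 genes tested, with a median of 3.61; DESeq2 called 5 of them and the test without doublet-marked barcodes 6. Cd74, the invariant chain, had 4166 and 2840 CPM in allogeneic lymphatic cells, against 397 CPM in isogeneic ones (3.14 ± 0.53, adjusted p = 4.29e-07), and was detected in 17 of 17 and 25 of 27 allogeneic cells, against 11 of 59 isogeneic cells. H2-Eb1, a class II beta chain, had 1638 and 1211 CPM, against 110 CPM (3.70 ± 0.64), and was detected in 17 and 24 cells, against 4. Ciita, the master regulator of class II transcription, had 110 and 96.6 CPM, against none, and was at least 15.6-fold higher. All 3 genes were seen in both allogeneic libraries in many cells. Over all barcodes of the same libraries Cd74 stood at 8602 and 2970 CPM, against 493 CPM, so that the lymphatic level was below the library's own in allogeneic replicate 2 and near it in allogeneic replicate 3, and the part of free RNA was not tested. Ciita stood at 91.5 and 48.8 CPM over all barcodes, against 3.55 CPM.

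Of 19 type I interferon response genes tested 12 rose and none fell, with a median of 2.45, but DESeq2 called 1 of them and the test without doublet-marked barcodes 2. The other 10 of the 29 list genes in the files were too low to pass the filter, and with no filter 10 of 29 rose. Isg15, a ubiquitin-like modifier, had 543 and 984 CPM in allogeneic lymphatic cells, against 142 CPM in isogeneic ones (2.45 ± 0.62, adjusted p = 0.00389). Zbp1, a sensor of nucleic acids, rose by 3.39 and Irf7 by 3.02, and Bst2, a membrane tether of virus particles, had 1383 and 1950 CPM, against 380 CPM (2.14). Zbp1 kept its call in each alternative with a test. The isogeneic cells held a measurable level of Isg15, Bst2 and Irf7, and both allogeneic libraries lay above it.

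Among checkpoint ligands 2 of 10 genes tested rose. Cd274, which encodes PD-L1, had 586 and 349 CPM in allogeneic lymphatic cells, against 10.7 CPM in isogeneic ones (5.37 ± 0.77, adjusted p = 1.02e-09), and Tnfsf10, the death ligand TRAIL, had 119 and 176 CPM, against 40.8 CPM (1.89). Vsir, which encodes the checkpoint protein VISTA that the series is about, had 93.3 and 34.5 CPM in allogeneic lymphatic cells, against 81.6 CPM in isogeneic ones. The isogeneic value of Vsir lay between the allogeneic ones, and the change of -0.52 did not pass the test (adjusted p = 0.994). In the lymphatic against blood endothelial description Vsir was higher by 1.11.

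Leukocyte recruitment genes changed in both directions, with 6 of 17 chemokine and decoy genes higher and 2 lower. Cxcl9, a ligand of the T cell receptor Cxcr3, had 2639 and 859 CPM in allogeneic lymphatic cells, against 0 CPM in isogeneic ones, and was at least 213-fold higher. It was detected in 14 and 18 cells, against none, and over all barcodes it stood at 2056 and 3846 CPM, against 2.62 CPM, so that in allogeneic replicate 3 the lymphatic level lay below that of the library. Cxcl10 had 441 and 1570 CPM, against 75.2 CPM (3.77 ± 0.67), and its call was lost without doublet-marked barcodes. Ccl5 had 475 and 476 CPM, against 6.44 CPM (6.12 ± 0.83), with 1352 and 1407 CPM over all barcodes, against 27.1 CPM, and 1 cell held 89 of its 138 UMIs in allogeneic replicate 3. Ccl5 is also on the list of T and NK cell markers. For these chemokines the part of free RNA from other cells was not tested.

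Ackr2 encodes a decoy receptor that internalizes and degrades inflammatory CC chemokines and is known from lymphatic endothelium. It had 255 and 397 CPM in allogeneic lymphatic cells, against 30.1 CPM in isogeneic ones, a log2 change of 3.45 ± 0.64 (adjusted p = 7.44e-06). It was detected in 8 of 17 and 22 of 27 allogeneic cells, against 11 of 59 isogeneic cells, and the lone lymphatic cell of allogeneic replicate 1 held 3 UMIs. Both allogeneic libraries lay above the isogeneic one, and over all barcodes Ackr2 stood at 3.07 and 6.84 CPM, against 2.44 CPM. The Ackr2 gene occupies chr9:121898355-121911074 of GRCm38.p6 (plus strand). Its call held in each alternative with a test, with adjusted p between 2.3e-06 and 0.0397, and with each allogeneic library left out in turn the change, then without a test, was 3.76 and 3.1.

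Vcam1, the ligand of the integrin VLA-4, had 382 and 614 CPM in allogeneic lymphatic cells, against 10.7 CPM in isogeneic ones (5.50 ± 0.78, adjusted p = 6.15e-10). Among 12 adhesion genes tested it was the 1 that rose, and Mrc1, described below, was the 1 that fell. Icam1, the ligand of LFA-1, had 84.9 and 331 CPM, against 94.5 CPM, and its groups overlapped (1.24 ± 0.52, adjusted p = 0.30). Of 18 inflammatory activation genes 4 rose, namely Ptgs2, C3, Saa3 and Serpina3g, of which DESeq2 called Serpina3g alone. Saa3, an acute phase protein, had 433 and 38.0 CPM, against none, and 1542 and 2226 CPM over all barcodes, against 41.7 CPM. Pfkfb3, an activator of glycolysis, had 365 and 293 CPM, against 27.9 CPM (3.53 ± 0.65, adjusted p = 4.54e-06).

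Most genes of the lymphatic programme did not pass the test between the grafts, and neither did most genes of any kind. Over all 5995 genes tested 2.67% rose and 0.801% fell, so the counts below do not set the programme apart. Of 31 lymphatic identity genes tested 1 rose, Ackr2, and 1 fell, the mannose receptor gene Mrc1, with a median of -0.12. Mrc1 had 25.5 and 41.4 CPM in allogeneic lymphatic cells, against 148 CPM in isogeneic ones (-2.02 ± 0.53). Ccl21a, Lyve1 and Reln were each lower in both allogeneic libraries than in the isogeneic one, with log2 changes of -0.61 ± 0.29, -0.70 ± 0.51 and -1.27 ± 0.53 that did not pass the test (adjusted p = 0.488, 0.942 and 0.297). Prox1, which chose the cells, had 297 and 352 CPM, against 339 CPM, and Flt4 had 798 and 438 CPM, against 417 CPM. None of 11 valve genes, 12 junction genes and 4 sphingosine 1-phosphate genes tested passed. A change that did not pass is not shown to be absent with 2 libraries against 1.

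Fewer genes fell, and DESeq2 called only Apoe among them. Adm had 33.9 and 55.2 CPM in allogeneic lymphatic cells, against 318 CPM in isogeneic ones (-2.72 ± 0.52, adjusted p = 1.19e-05). The neutrophil chemokine genes Cxcl1 and Cxcl2 fell by 2.56 and 2.15 on the log2 scale, with Cxcl2 at 280.0 and 128 CPM, against 876 CPM. Both allogeneic libraries lay below the isogeneic one for all 3 genes, but 76 of the 110 isogeneic UMIs of Cxcl1 came from 1 cell. Of 12 lipid handling genes 4 fell, namely Apoe, Cd36, Fabp4 and Gpihbp1, which anchors lipoprotein lipase to capillaries. Apoe had 221 and 293 CPM, against 3506 CPM (-3.75 ± 0.49), and 2 isogeneic cells held 1027 of the 1633 UMIs behind the isogeneic value. Without the 6 isogeneic cells in which macrophage genes made up over 1% of UMIs the call of Apoe was lost, as were those of Cd36 and Fabp4. Stmn1, a microtubule regulator of dividing cells, fell by 2.28, and the matrix protein Mgp by 2.64, with 8.49 and 193 CPM, against 717 CPM. Some of the largest falls were those of Sparcl1, Trem2, Pf4 and C5ar1. These had 0, 3, 2 and 3 allogeneic UMIs, against 35, 70, 36 and 43 isogeneic ones in 4, 8, 9 and 8 cells. In isogeneic lymphatic cells they stood at 75.2, 150, 77.3 and 92.3 CPM. Over all isogeneic barcodes they stood at 192, 310, 307 and 77.9 CPM, higher for all but C5ar1. The part of other cells' RNA in these falls was not tested.

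**Figure D4:**
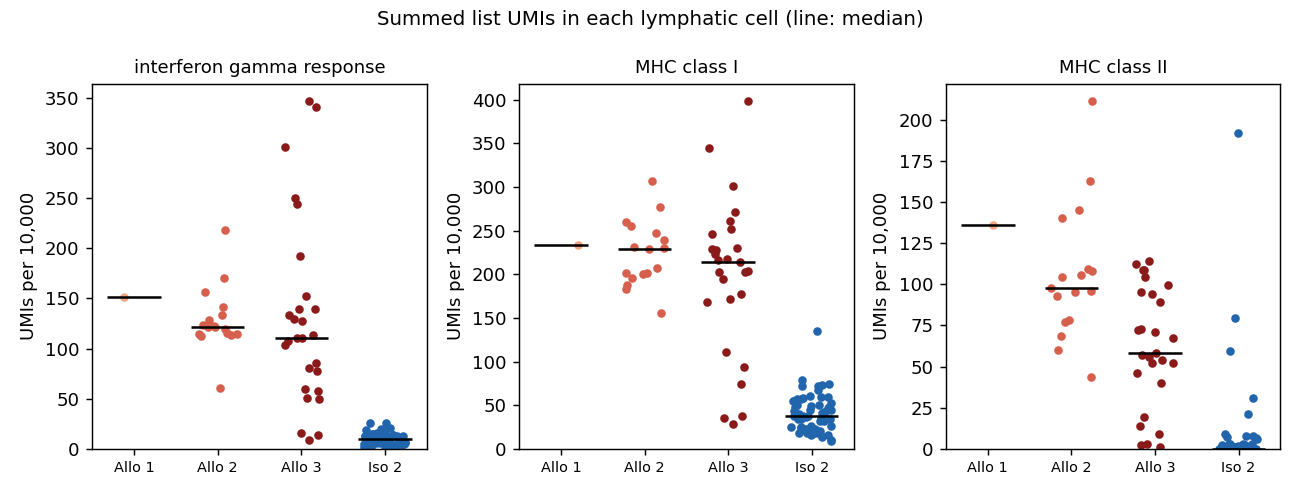
Summed UMIs per 10000 of the interferon-gamma, MHC class I and MHC class II lists in each lymphatic cell of the 4 libraries; each point is 1 cell and the line is the library's median. The interferon-gamma medians are 151, 122 and 110 in allogeneic replicates 1, 2 and 3, against 9.72 in isogeneic cells.

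Cell by cell the interferon-gamma list separated the libraries almost completely. It summed to between 60.3 and 218 UMIs per 10000 in allogeneic replicate 2 (median 122) and between 8.55 and 347 in allogeneic replicate 3 (median 110), against 0 to 25.7 in the isogeneic library (median 9.72). The lone cell of allogeneic replicate 1 stood at 151. All cells of allogeneic replicate 2 lay above every isogeneic cell, and 3 of 27 cells of allogeneic replicate 3 lay within the isogeneic range; 1 of these held all 5 lymphatic genes, with 682 UMIs of Ccl21a, and the other two held at most 1 of the 5. The highest cells of allogeneic replicate 3, at 347 and 341, held 0 of the 5 genes and no UMI of Mmrn1 or Cldn5. Below them the next cell stood at 301 and held 4 of the 5. A median of 21 list genes was detected per cell in both allogeneic libraries, against 4 in the isogeneic library. Cells of 1 library share their graft and are not replicates.

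MHC class I UMIs ran from 155 to 307 per 10000 in allogeneic replicate 2 (median 229) and from 28.3 to 399 in allogeneic replicate 3 (median 215), against 8.63 to 136 in the isogeneic library (median 38.2). MHC class II medians were 97.7 and 58.0, against 0, and the highest isogeneic cell reached 192. The summed identity list, without Ccl21a and the rule genes, had medians of 125 and 162, against 160 in the isogeneic library, and its cells overlapped between the libraries. The chemokine list, also without Ccl21a, had medians of 43.6 and 26.8, against 9.93, also with overlap.

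Blood endothelial cells of the same grafts gave a yardstick. In them 660 of 13423 genes (4.92%) changed in 3 allogeneic libraries against 1, of which 387 (2.88%) rose and 273 (2.03%) fell. There 26 of 30 interferon-gamma genes, 19 of 20 MHC class I genes, 8 of 10 class II genes and 17 of 29 type I genes rose. The 2 comparisons used different cells of the same grafts. Of the 3260 blood endothelial cells 345 had over 1% macrophage UMIs, and Cldn5 was detected in 37.9%. Their T and NK list summed to 973, 904 and 384 CPM in allogeneic replicates 1, 2 and 3, against 21.4 CPM in the isogeneic library. The part of other cells' RNA in the blood endothelial calls was not tested. Gbp2 had 2842, 2690 and 2825 CPM in allogeneic blood endothelial cells, against 22.9 CPM in isogeneic ones (6.98 ± 0.33), beside 6.84 ± 0.73 in lymphatic cells. Vcam1 rose by 3.1 ± 0.29, beside 5.50 ± 0.78, and H2-K1 by 1.58 ± 0.23, beside 2.71 ± 0.49. The number of blood endothelial calls varied with the libraries in the fit when 1 was left out, which leaves 2 against 1. Without allogeneic replicate 1 none of 13898 genes passed in edgeR, with 1454 at an unadjusted p under 0.05, whereas 904 passed without replicate 2 and 5589 without replicate 3.

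The difference between the allogeneic effects in the 2 kinds of endothelium was tested directly, as an interaction in the 3 libraries with both kinds. Of 12383 genes 24 (0.194%) passed, 20 (0.162%) with a higher and 4 (0.0323%) with a lower log2 change in lymphatic cells. None of the 30 interferon-gamma genes, 29 type I genes, 20 MHC class I genes or 9 class II genes tested was among them, with median log2 differences of -0.13, -0.26, 0.40 and -0.13. The difference for Vcam1 was 2.31 ± 0.90 (adjusted p = 1). Intervals this wide do not show that the responses were alike.

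Ackr2 and Angpt2 were among those that passed. Ackr2 had 20.5, 12.2 and 17.5 CPM in allogeneic blood endothelial cells, against 12.5 CPM in isogeneic ones, with a change of 0.45 ± 0.37 that did not pass (adjusted p = 0.521). The allogeneic change of Ackr2 was 3.08 ± 0.71 larger in lymphatic cells (adjusted p = 0.0115). Angpt2, a destabilizing ligand of the receptor Tek, had 124, 111 and 127 CPM in allogeneic blood endothelial cells, against 19.9 CPM in isogeneic ones (2.66 ± 0.27, adjusted p = 0.00629). In lymphatic cells Angpt2 had 59.4 and 107 CPM, against 144 CPM (-0.69 ± 0.51), below the isogeneic value in both fitted libraries. The lone lymphatic cell of allogeneic replicate 1 held 4 UMIs, or 342 CPM, above the isogeneic value. Its difference was -3.43 ± 0.67 (adjusted p = 0.000377). DESeq2 did not call either difference (adjusted p = 1 for both), while the edgeR alternatives with a test gave adjusted p from 0.00323 to 0.0271 for Ackr2 and from 6.69e-05 to 0.00281 for Angpt2.

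**Figure D5:**
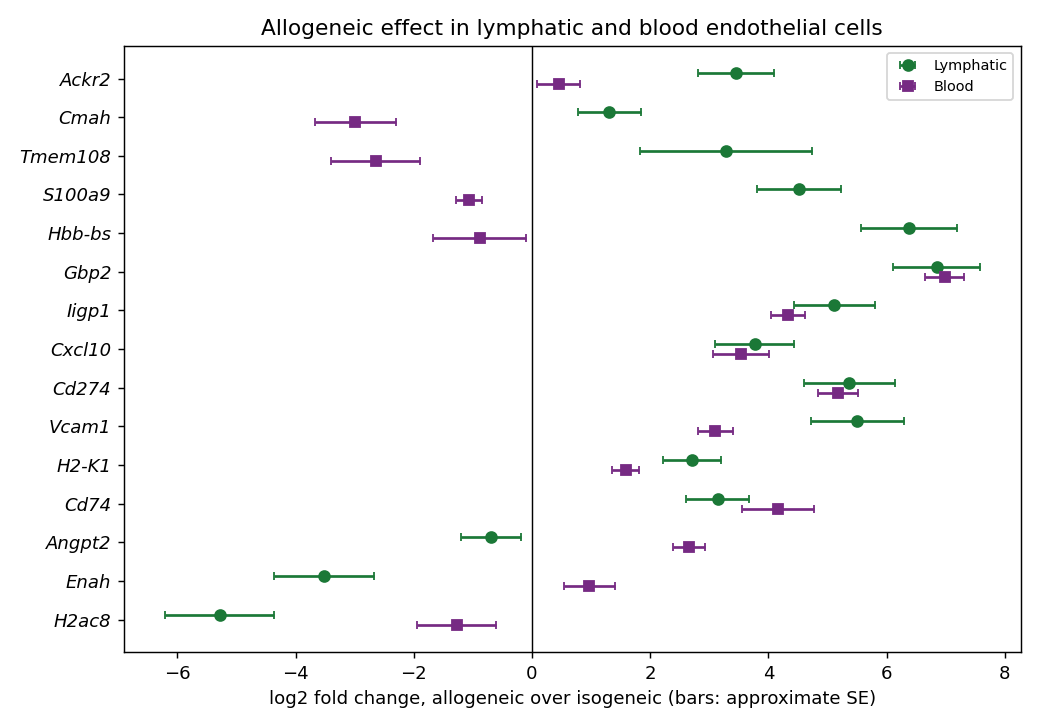
Allogeneic against isogeneic log2 change with its approximate SE for named genes in lymphatic cells (circles) and in blood endothelial cells (squares); values above 0 are higher in allogeneic cells. Ackr2 lies at 3.45 in lymphatic and at 0.45 in blood endothelial cells, and Angpt2 at -0.69 and 2.66.

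RNA of other cells moved with the groups. The macrophage and monocyte list summed to 3530 and 335 CPM in allogeneic lymphatic cells, against 3792 CPM in isogeneic ones, and the isogeneic sum was concentrated: 6 isogeneic cells had over 1% macrophage UMIs, with up to 409 in a cell, while the medians were 24 and 2, against 1. The T and NK list summed to 806 and 507 CPM, against 10.7 CPM, of which Ccl5, the only gene of that list tested, gave 475 and 476, against 6.44 CPM. Red cell genes summed to 3225 and 31.1 CPM, against 19.3 CPM, and so were high in allogeneic replicate 2 alone. The mural list summed to 42.4 and 62.1 CPM, against 429 CPM, and 3 of its 4 genes tested fell, namely Rgs5, Acta2 and Tagln. Few isogeneic cells carried them: 2 cells held all 52 isogeneic UMIs of Rgs5, and 1 cell held 45 of the 57 of Acta2. The fibroblast list summed to 161 and 1294 CPM, against 1166 CPM, and 2 of its 5 genes tested fell, Lum and Gsn. The part of these cells' RNA in the fall of Mgp and other genes was not tested. All 6 cells with over 1% macrophage UMIs were isogeneic, so leaving them out changed no allogeneic cell. Without them 24 of the 30 interferon-gamma genes rose, with a median of 5.00, and 7 of 8 class II genes, with a median of 6.76. Of the MHC class I genes 15 of 19 rose, and of the type I genes 8 of 19. That step did not test macrophage RNA in the allogeneic cells. A limit on macrophage and T cell UMIs left 2 cells in allogeneic replicate 2, too few for a test. The part of other cells' RNA in the remaining changes was not tested.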

How the data were processed

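The authors deposited 1 matrix of raw UMI counts per gene and barcode for each of 4 libraries (Chromium Single Cell 3' v3.1, day 5, 34097 genes). The submitters' processing notes name mm10 and Cell Ranger 3.1.0, while the deposited matrix headers name version 6.1.0; the sources used here do not say whether counting used strand. UMIs were summed per library and kind of cell, leaving out libraries with fewer than 5 lymphatic cells, so that the interaction was fitted on 6 sums and not on the 8 planned.

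Sums were tested with edgeR 4.0.16 (TMM scaling, filterByExpr, quasi-likelihood F-test, Benjamini-Hochberg over all genes tested; R 4.3.3, limma 3.58.1), with the library as a block where both kinds were compared. Genes the rule reads were not tested. Errors are approximate, taken as the size of the log2 change over the root of its F statistic. A gene with no count in a group was set against a floor of 3 counts over the group. Alternatives were DESeq2 1.42.0 (Wald test and size factors), other filters, libraries left out, a Scrublet doublet step (scanpy 1.11.5) and other cell limits. No doublet was removed otherwise. The test was run on simulated counts drawn with the same dispersion for every gene, which does not cover genes whose allogeneic libraries stood far apart. The members, the 34 gene lists and the tests were chosen with earlier results of these data known. Genes were named from those with the largest changes on the same side in every library, with at least 50 CPM and 20 UMIs. Genes of the lists were named as well, called ones and some others. Many genes that met these limits are not named. For the difference of effects the named genes were the 8 largest with at least 20 UMIs, on whichever side each library lay, together with called list genes. The fitted lymphatic sums held 117845 to 465734 UMIs from 17 to 59 cells, which limits precision for genes with few UMIs.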

Additional observations from a re-analysis of the deposited data

Results flagged for a closer look

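The allogeneic effect in lymphatic cells differed from that in blood endothelial cells for 24 genes in the direct test of the difference (edgeR, adjusted p under 0.05), and 11 of them meet the rule for named genes; each value below is the lymphatic minus the blood endothelial log2 change. The difference was 3.08 for Ackr2 and -3.43 for Angpt2, whose levels are given above. Cmah, which makes a sialic acid, differed by 4.43, with 339 and 51.8 CPM in allogeneic lymphatic cells, against 70.9 CPM in isogeneic ones. Its 2 allogeneic libraries lay on either side of the isogeneic one, and the difference was 1.86 without allogeneic replicate 2 and 7.13 without replicate 3. In blood endothelial cells Cmah had 4.51, 0.727 and 5.43 CPM in allogeneic replicates 1, 2 and 3, against 26.3 CPM in the isogeneic library. The change of Cmah was 1.31 ± 0.54 in lymphatic and -2.99 ± 0.68 in blood endothelial cells, and neither passed the test.

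The haemoglobin genes Hba-a1, Hbb-bt and Hbb-bs differed by 6.65, 6.56 and 6.16. Hbb-bs had 2249 CPM in lymphatic cells of allogeneic replicate 2 and 24.2 CPM in those of replicate 3, against 12.9 CPM in isogeneic ones, so the value rests on allogeneic replicate 2, where 9 of 17 cells held it. The neutrophil genes S100a9 and S100a8 differed by 5.18 and 4.0, and 1 cell of allogeneic replicate 3 held 101 of the 102 and 56 of the 57 UMIs behind them. Tmem108 differed by 5.20, on 22 UMIs in 2 cells of allogeneic replicate 3. Enah, a regulator of actin, differed by -4.92, and 1 isogeneic cell held 39 of its 42 UMIs. The histone gene H2ac8 differed by -4.88 and was detected in 10 isogeneic cells. Except for Ackr2, Angpt2, Cmah and H2ac8 these values therefore rest largely on 1 library or on 1 or 2 cells. The size of the Cmah difference varied with the library left out, and DESeq2 did not call it. Of the fitted allogeneic libraries only replicate 2 had more Cmah in lymphatic cells than the isogeneic library.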

How the results depend on the processing

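With 2 allogeneic libraries and 1 isogeneic library the allogeneic comparison of lymphatic cells has 1 residual degree of freedom, and genes with few UMIs in 17 to 59 cells are limited by depth. It called 208 genes, 76.92% of them higher. The count was 53 with DESeq2 (98.11% higher), 58 without doublet-marked barcodes (91.38%), 108 with at least 3 UMIs of Prox1 and Mmrn1 and 116 without cells of over 1% macrophage UMIs (88.79%); the cause was not tested, and the last setting and the one on 5 markers were chosen after seeing the data. Leaving out allogeneic replicate 2 or 3, or limiting leukocyte UMIs, left no test. C1qb and Lyz2 reversed to 1.48 and 1.33 without those macrophage-rich cells, Cxcl1 to 0.57 under the leukocyte limit, Tagln to 0.47 with at least 3 UMIs and to 0.90 with at least 2 of the 5 markers, and Ly6c1 to -1.35 without allogeneic replicate 2 (3.50 without replicate 3).

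The library block of the lymphatic against blood endothelial description pairs sums of the same library: 997 genes differed with it and 319 without it (65.83% higher, against 52.16%). The count was 663 with blood endothelial cells matched on UMIs, where fewer genes were tested, and 708 to 1227 with 1 library left out. Dcn, higher in lymphatic cells in the main setting, reversed to -0.056 with at least 2 of the 5 markers. No paired analysis was possible because the allogeneic and isogeneic groups share only replicate number 2. In blood endothelial cells 660 genes were called, 1081 with no filter on low counts and 0 to 5589 with 1 allogeneic library left out. The difference of effects held 24 genes, 1 with DESeq2 and 15 with at least 2 of the 5 markers; under the leukocyte limit S100a8 reversed to -6.08, S100a9 to -6.92 and Hbb-bt to -1.64, Hbb-bt also to -1.90 without allogeneic replicate 2 (7.29 without replicate 3), and Tmem108 to -3.19 without allogeneic replicate 3 (5.58 without replicate 2) and to -4.61 with at least 2 of the 5 markers. The lower lymphatic share in allogeneic grafts kept its direction in every setting tried.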
